A study of Homo sapiens with 6 samples.

Results

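The interferon response genes and the MHC class I antigen presentation genes are described here in human forebrain organoids given amyloid-β peptide. They are 49 genes chosen by symbol from the 18056 genes measured, and all 49 were listed in the data. Of these, 40 had enough counts to test, 8 had counts below the filter, and OAS2 had 0 counts in every library. The organoids were grown from DYR0100, an established human induced pluripotent stem cell line of wild-type genotype, by a dorsal forebrain protocol. One group of 3 organoid samples received vehicle, and the other group of 3 received 5 µM Aβ42, the aggregation-prone amyloid peptide, for 6 days. All 6 libraries carry 1 batch label, 1 cell line supplied both groups, and the design text calls the replicates independent biological replicates.

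Type I interferons bind a receptor made of IFNAR1 and IFNAR2, whose kinases TYK2 and JAK1 phosphorylate STAT proteins, STAT2 among them. With IRF9 these form a complex that binds the interferon-stimulated response element (ISRE) in promoters. Its targets include antiviral proteins that bind or degrade viral RNA, block membrane fusion or tether virions. They also include the genes that load peptides onto MHC class I molecules, which show cell contents to T cells. Neurons keep a low level of class I, and microglia are the main immune cells of the brain.

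Total estimated counts were 16465390 to 16742958 per library. The dorsal forebrain markers EMX1, EMX2, LHX2, PAX6, NEUROD6 and TBR1 all had enough counts to test, with mean counts per library from 578.2 (EMX2) to 7789 (NEUROD6). Aβ42 replicate 2 stood apart from its group. In 8362 of 13842 genes tested it lay nearer the vehicle side than both other Aβ42 libraries, and in 14 of the 16 interferon and class I genes with an unadjusted p-value under 0.05. By chi-square per gene it differed less from vehicle replicates 1, 2 and 3 (3.16, 7.71 and 4.58) than from Aβ42 replicates 1 and 3 (9.4 and 8.49). For the genes with an unadjusted p-value under 0.05 and for TAP1, the adjusted p-value without that library stands beside the main one. Because Aβ42 replicate 2 was singled out for lying near vehicle, smaller p-values without it follow from that choice. They are not separate evidence of a difference. Leaving out any other library instead let 0 genes pass in edgeR, where the smallest adjusted p-values were 0.0827 to 0.255. Of 14 markers of microglia and macrophages, TYROBP, C1QA, C1QB, C1QC and TREM2 had 0 counts in all libraries, and only CD68 had enough counts to test. Their summed level was 4.86 to 5.87 TPM in vehicle and 5.48 to 6.49 TPM with Aβ42, where TPM is a level scaled for gene length and library size. CD68 made up most of this sum, at 4.28, 5.09 and 4.74 TPM in vehicle and 4.97, 5.1 and 4.68 TPM with Aβ42.

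Promoter letters are shown before the values because the ISRE is the element that the pathway acts through. RefSeq (GRCh38.p14) gave windows from 250 bases before to 50 bases after a transcription start for 38 of the 49 genes. The ISRE core was searched as GAAANNGAAA and its reverse complement TTTCNNTTTC, where N is any base and overlapping matches count separately. It was found in at least 1 window of 25 of the 38 genes (65.8%), against 4.38% of all 27305 genes with a window. By window the shares were 29 of 49 (59.2%) and 3.57% of 35116. The GAS element of interferon-γ signalling, searched as TTCNNNGAA, whose reverse complement has the same letters, was found in 10 of the 38 genes (26.3%) and in 9.38% of all genes. A GAS match can share bases with an ISRE match. HLA-B and HLA-C had no ISRE match in their windows, and HLA-E had no window. Of the class I and peptide transport genes, stretches around the ISRE core follow for B2M, TAP1, TAP2 and HLA-F. Those of IFI6, BST2 and ISG15 follow as well, and all of these genes had higher mean levels in the Aβ42 group. The stretches read 5′ to 3′ on the gene's strand, with the ISRE core in capitals.
B2M: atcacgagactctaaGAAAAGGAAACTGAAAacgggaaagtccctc
TAP1: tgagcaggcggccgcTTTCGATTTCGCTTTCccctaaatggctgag
TAP2: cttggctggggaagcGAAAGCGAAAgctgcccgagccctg
HLA-F: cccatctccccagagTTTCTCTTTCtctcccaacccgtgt
IFI6: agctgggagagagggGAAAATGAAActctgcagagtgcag
BST2: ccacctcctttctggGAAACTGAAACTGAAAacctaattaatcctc
ISG15: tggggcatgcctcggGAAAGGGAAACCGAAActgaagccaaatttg

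The same core stood in the promoters of genes with lower mean levels in the Aβ42 group, shown next. DTX3L and PARP9 are divergent neighbours whose windows overlap, and the stretch given for DTX3L, chr3:122564317-122564356, is also the PARP9 stretch read from the other strand.
PARP14: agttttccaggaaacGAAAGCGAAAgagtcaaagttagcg
DTX3L: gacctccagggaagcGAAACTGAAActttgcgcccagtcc
IFIT5: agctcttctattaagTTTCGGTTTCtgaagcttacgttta
IFITM3: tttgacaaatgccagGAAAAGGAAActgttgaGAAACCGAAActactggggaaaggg
EIF2AK2: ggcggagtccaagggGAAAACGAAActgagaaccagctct

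Among genes with an unadjusted p-value under 0.05, the core was present in 4 of the 7 higher genes with a window and in 5 of the 6 lower ones. In the 4 higher genes (B2M, BST2, IFI6 and TAP2) the first base of each match lay 156 to 58 bases before the start. In the 5 lower genes (DTX3L, EIF2AK2, IFIT5, IFITM3 and PARP14) it lay 52 to 4 bases before it. These positions were compared after the values were seen, and no test was made. The 13 genes with a p-value of at least 0.05 spanned both ranges, from 196 bases before to 12 bases after the start. The match is a description of letters and not a measurement of binding.

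**Figure D1:**
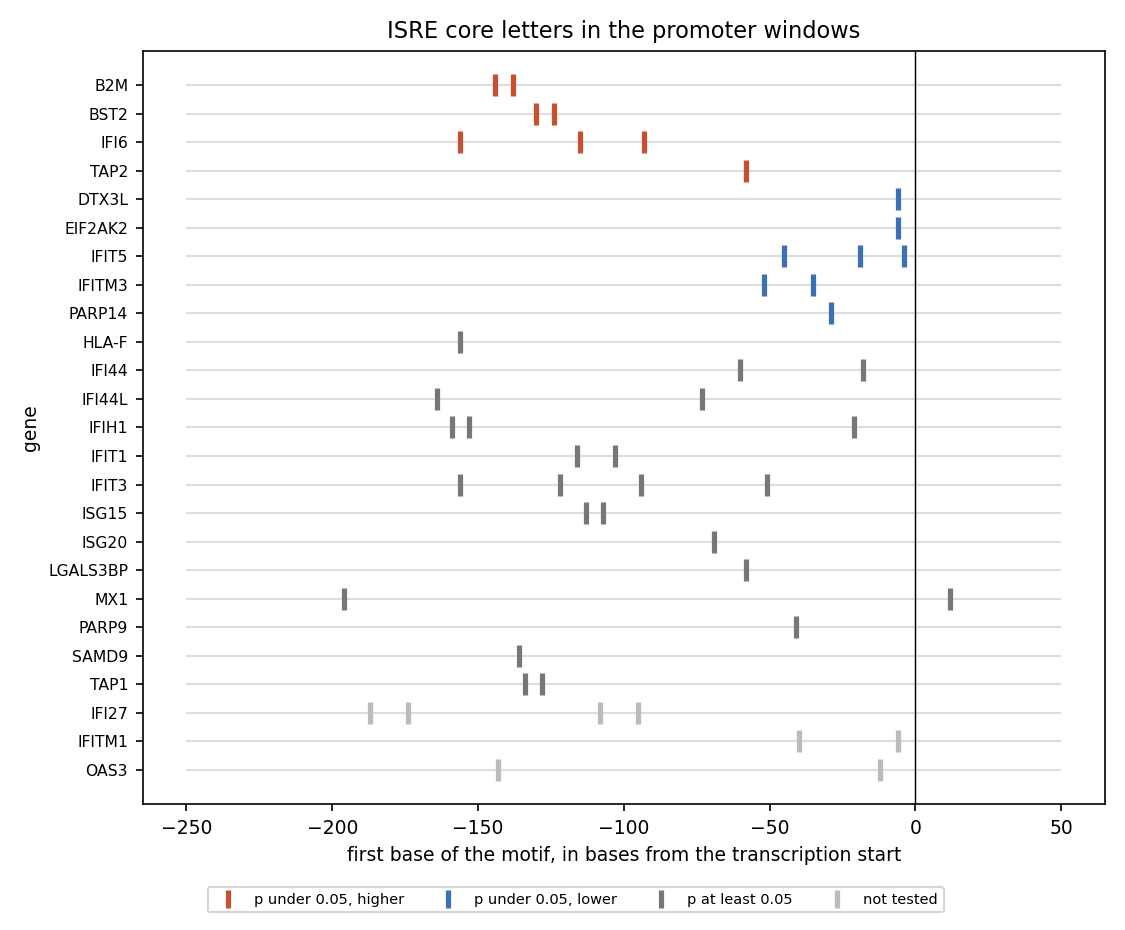
Position of the ISRE core letters in the promoter windows of the 25 genes that hold them; the x axis gives the distance of the motif's first base from the transcription start in bases, and each tick is 1 match on either strand. Matches of the 4 higher genes lie from 156 to 58 bases before the start and those of the 5 lower genes from 52 to 4 bases before it. Those of the 13 genes with an unadjusted p-value of at least 0.05 span both ranges, and no test of position was made.

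IFI6 had 3 matches in the 250 bases before its start, chr1:27672193-27672442 on the minus strand, which read as follows.
IFI6: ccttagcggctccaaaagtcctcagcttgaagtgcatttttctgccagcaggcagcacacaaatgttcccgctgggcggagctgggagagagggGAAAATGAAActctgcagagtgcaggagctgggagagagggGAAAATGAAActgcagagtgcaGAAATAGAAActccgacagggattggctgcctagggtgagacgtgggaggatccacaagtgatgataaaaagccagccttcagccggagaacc
HLA-B had none of these letters in the same span, chr6:31357180-31357429 on the minus strand. No match says only that these letters are absent from the window.
HLA-B: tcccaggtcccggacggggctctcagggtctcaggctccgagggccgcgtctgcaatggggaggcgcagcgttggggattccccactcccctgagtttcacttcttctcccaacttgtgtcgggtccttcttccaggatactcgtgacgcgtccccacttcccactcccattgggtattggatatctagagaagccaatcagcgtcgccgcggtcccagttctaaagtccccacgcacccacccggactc

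Levels spanned a wide range in organoids of both groups. By mean TPM over the 6 libraries, 22 genes were at 10 or more, 17 between 1 and 10, and 10 under 1. B2M, the light chain of class I molecules, was the highest at 244.6 TPM, above 96.9% of all genes. JAK1 followed at 97.3 TPM, HLA-C at 67.0, LGALS3BP at 57.3, HLA-B at 48.0 and IFI44 at 47.5 TPM. The signalling parts of the pathway were thus present, with STAT2 at 45.6 TPM, IFNAR1 at 42.7, IRF3 at 32.7, IFNAR2 at 20.1, TYK2 at 16.1 and IRF9 at 11.3 TPM. Many inducible antiviral genes were near the bottom. MX1 was at 0.698 TPM, IFI35 at 0.585, MX2 at 0.307, OAS1 at 0.218, OASL at 0.127, XAF1 at 0.0717 and OAS3 at 0.0483 TPM.

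The 9 untested genes included all 4 members of the OAS family. OAS1, OAS2 and OAS3 make the second messenger that activates RNase L, and OASL is a relative without that activity. OAS1 had 2, 0 and 2 counts in vehicle replicates 1 to 3 and 2, 1 and 4 counts in Aβ42 replicates 1 to 3. OAS3 had 5, 3 and 2 counts in vehicle and 0, 2 and 0 with Aβ42, and OASL had 0 to 4 counts in any library. OAS2 had 0 counts in all libraries, which allows up to 3 counts, or 0.179 to 0.182 CPM (counts scaled to library size), in each. IFITM1, an inhibitor of viral membrane fusion, had 21, 24 and 7 counts in vehicle and 3, 9 and 10 with Aβ42. MX2, a GTPase that restricts HIV, had 6, 16 and 1 counts in vehicle and 7, 1 and 1 with Aβ42. IFI27 and IFI35 had 2 to 8 counts and XAF1 0 to 2 counts per library. When the filter on low counts was dropped, IFITM1 had a log2 fold change of -1.24 with an unadjusted p-value of 0.0271 in edgeR's fit across all genes (adjusted 0.186). OAS3 then had an unadjusted p-value of 0.0562 and an adjusted one of 0.261. Its CPM values did not overlap between groups, but only by 0.122 in vehicle replicate 3 against 0.119 in Aβ42 replicate 2. Both libraries held 2 counts. The other 6 genes with counts had unadjusted p-values of 0.184 to 0.897, and at their counts no difference between groups was detectable.

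The ligands themselves were at or near 0. Of 21 genes for type I, II and III interferons, 13 were listed, and the others were not analysed here. IFNE, IFNK, IFNL2 and IFNL3 had 0 counts in all 6 libraries. The interferon-β gene IFNB1 had 3 counts over all libraries, and the highest, IFNA21, had 15, with no more than 4 in a library. None passed the filter, so no comparison of ligands was made.

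The quasi-likelihood test of edgeR put 0 of 13842 genes past an adjusted p-value of 0.05 (0%), and so 0 of the 40 interferon and class I genes. Over all genes, 3302 had an unadjusted p-value under 0.05. At an unadjusted p-value under 0.05, 10 of the 40 were higher with Aβ42 (25%, against 12.4% of all genes) and 6 were lower (15%, against 11.5%). The class I and peptide transport genes gave 5 of the 10 higher genes from 7 tested. Of the other 33 genes, 5 were higher (15.2%) and 6 lower (18.2%). The median log2 fold change of the 40 genes was 0.06, beside 0.00 for all genes, and 26 were above 0. The groups did not overlap for 8 genes that were higher (20%, against 13.6% of all genes) and 3 that were lower (7.5%, against 13.4%).

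Same-numbered libraries of the 2 groups deviated together, with correlations of 0.189, 0.409 and 0.132. Numbers 1 and 3 also correlated with each other across groups (0.176 and 0.188). A blocked fit was made as well, with a pairing taken from these same data and not from the labels. All adjusted p-values with the block rest on that pairing. In the blocked fit 9 of the 40 genes passed as higher (22.5%, against 7.12% of all genes) and 5 as lower (12.5%, against 7.05%). The higher ones were B2M, HLA-B, HLA-C, HLA-E, TAP2, IFI6, BST2, IFNAR2 and IRF3. The lower ones were PARP14, DTX3L, IFITM3, IFNAR1 and EIF2AK2. Without Aβ42 replicate 2, and with no block, 11 passed as higher (11.5% of all genes) and 6 as lower (11.6% of all genes). With any other library left out, 0 passed in either direction. DESeq2 passed HLA-B, HLA-C, HLA-E and B2M as higher (2.81% of all genes) and PARP14 as lower (3.07% of all genes). How many of the 49 were lower at an unadjusted p-value under 0.05 moved with the libraries used. Leaving out vehicle replicate 2 gave 2 genes (6.5% of all genes), and leaving out Aβ42 replicate 1 also gave 2 (7.41%). Leaving out Aβ42 replicate 3 gave 3 (6.4%), and leaving out Aβ42 replicate 2 gave 11 (18.5%). IFITM1, which passed the filter there, is 1 of the genes in both of these counts. In bulk RNA, fewer cells of a type and less RNA per cell cannot be told apart.

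**Figure D2:**
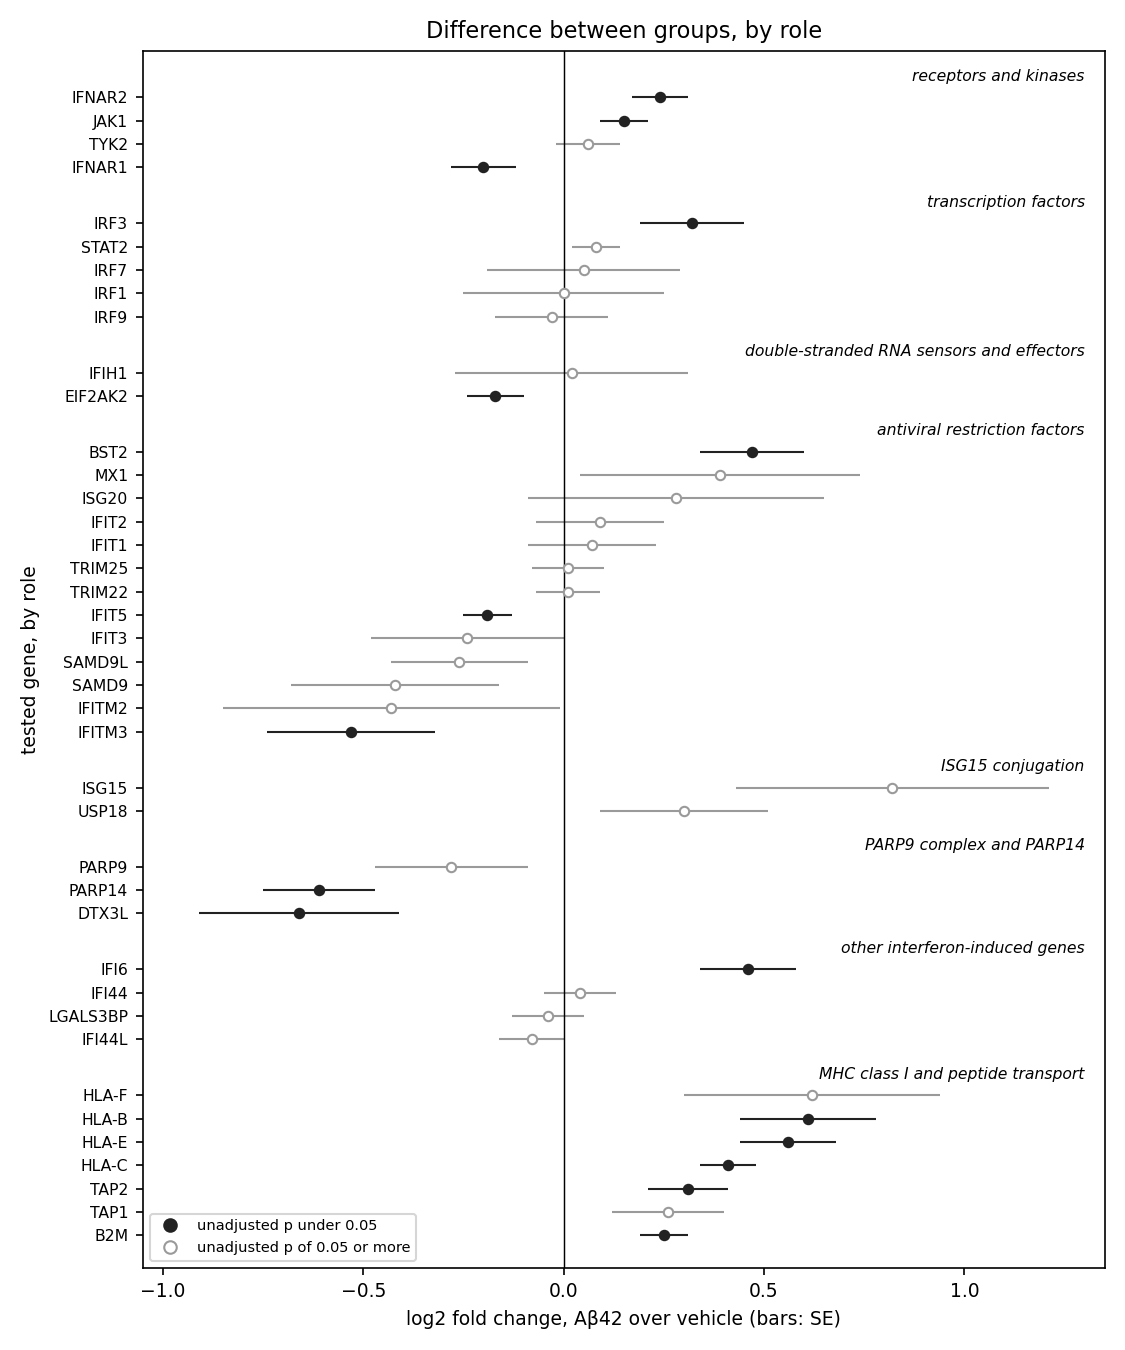
Log2 fold change of Aβ42 over vehicle with its SE for the 40 tested genes, grouped by role; filled points have an unadjusted p-value under 0.05 and none passed after adjustment. All 7 class I and peptide transport genes lie above 0, and the 3 genes of the PARP9 complex and PARP14 lie below 0.

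The MHC class I and peptide transport genes had higher mean levels in the Aβ42 group. All 7 had a fold change above 1, the median log2 fold change was 0.41, and 5 had an unadjusted p-value under 0.05 (71.4%). Over all genes, 12.4% were higher at that threshold. Their summed level was 353.4 to 383.5 TPM in vehicle and 406.5 to 477.4 TPM with Aβ42. The median was 0.37 to 0.46 when any 1 library was left out. It was 0.37 after a correction for gene length, which was tried because fold changes ran with length across genes (Spearman -0.16, genes not being independent). Reads of HLA genes are shared between near-identical and polymorphic copies, and the estimated counts of HLA-B, HLA-C and HLA-E were not whole in every library. Their levels are therefore uncertain.

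Of the heavy chains, which hold the peptide, HLA-C (RefSeq, GRCh38.p14, chr6:31268749-31272092) had the smallest p-value of all 40 genes. It was at 29.3, 28.2 and 30.7 CPM in vehicle replicates 1 to 3 and at 40.8, 35.9 and 40.2 CPM in Aβ42 replicates 1 to 3. Every Aβ42 library lay above every vehicle library, a 1.32-fold difference (log2 fold change 0.41 ± 0.07 SE). Its adjusted p-value was 0.0684 in edgeR's quasi-likelihood test, 0.00138 with the replicate block and 0.000866 without Aβ42 replicate 2. HLA-E (chr6:30489509-30494194), a heavy chain that presents leader peptides to natural killer cells, was at 21.0, 18.4 and 20.7 CPM in vehicle and 33.6, 24.1 and 30.7 CPM with Aβ42. Again the groups did not overlap, with Aβ42 replicate 2 the lowest of its group. The log2 fold change was 0.56 ± 0.12 (edgeR adjusted p-value 0.0697, 0.000493 with the block and 0.000363 without Aβ42 replicate 2).

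HLA-B (chr6:31353875-31357179), a classical heavy chain, was at 22.3, 15 and 20.7 CPM in vehicle and 33.5, 23.9 and 31.3 CPM with Aβ42. The libraries numbered 2 were the lowest of both groups, and vehicle replicate 1 came near Aβ42 replicate 2. The log2 fold change was 0.61 ± 0.17 (edgeR adjusted p-value 0.0986, 0.000186 with the block and 0.0092 without Aβ42 replicate 2). HLA-F, a heavy chain of the non-classical group, had only 16.2 counts on average. It was at 0.601, 0.730 and 0.976 CPM in vehicle and 1.46, 1.13 and 0.960 CPM with Aβ42, so the groups overlapped (edgeR adjusted p-value 0.262).

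B2M (chr15:44711517-44718145), the light chain common to all class I molecules, was at 59.1, 58.8 and 61.4 CPM in vehicle and 74.5, 65.4 and 73.1 CPM with Aβ42. All vehicle libraries lay below all Aβ42 libraries. The difference was 1.19-fold (log2 fold change 0.25 ± 0.06, edgeR adjusted p-value 0.0734, 0.0114 with the block and 0.00216 without Aβ42 replicate 2). TAP1 and TAP2 form the transporter that carries peptides into the endoplasmic reticulum. TAP2 was at 13.1, 11.9 and 12.4 CPM in vehicle and 16.3, 14.2 and 15.8 CPM with Aβ42, without overlap (log2 fold change 0.31 ± 0.10, edgeR adjusted p-value 0.107, 0.0417 with the block and 0.0167 without Aβ42 replicate 2). TAP1 was at 10.2, 8.03 and 8.84 CPM in vehicle and 11.3, 9.09 and 12 CPM with Aβ42. Vehicle replicate 1 lay above Aβ42 replicate 2, and the edgeR adjusted p-value was 0.275 (0.150 with the block and 0.0495 without Aβ42 replicate 2).

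**Figure D3:**
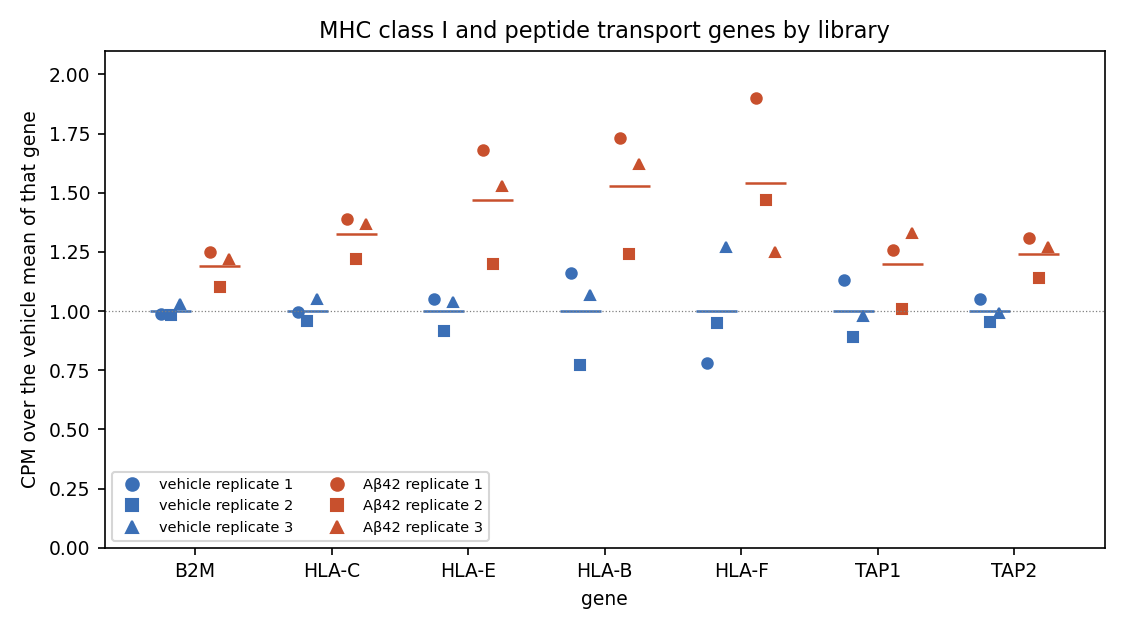
CPM of the 7 class I and peptide transport genes in each library, divided by the vehicle mean of that gene; symbols give the replicate number and bars the group mean. Groups do not overlap for B2M, HLA-C, HLA-E, HLA-B and TAP2, and Aβ42 replicate 2 is the lowest Aβ42 library in 6 of the 7 genes.

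Other genes of the class I pathway, from a list of 19, had a median log2 fold change of -0.02 over the 16 that could be tested. PSME1, a subunit of the proteasome activator that interferon-γ induces, was at 26.7, 24.4 and 27.4 CPM in vehicle and 30.3, 30.9 and 29.9 CPM with Aβ42. PSME3, a nuclear proteasome activator, was at 118.6, 122.1 and 117.5 CPM in vehicle and 105.9, 113.6 and 101.6 CPM with Aβ42. Groups did not overlap for either gene, and neither passed (edgeR adjusted p-values 0.118 and 0.120). Of 12 class II genes, which present peptides to helper T cells, HLA-DQB1 and CIITA alone could be tested. HLA-DQA1 and HLA-DRB5 had 0 counts in all libraries. Reads of HLA genes are shared between copies, so the HLA-DQB1 level is uncertain as well. HLA-DQB1 was at 2.64, 2.37 and 3.42 CPM in vehicle and 4.94, 4.22 and 5.82 CPM with Aβ42, without overlap (log2 fold change 0.83 ± 0.20, edgeR adjusted p-value 0.0734, 0.00444 with the block). CIITA, the class II transactivator, had a log2 fold change of -0.42 ± 0.28 (edgeR adjusted p-value 0.384).

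The receptor chains differed in direction. IFNAR1 was at 109.7, 109.1 and 110.5 CPM in vehicle and 88.9, 109.7 and 88.5 CPM with Aβ42. Aβ42 replicates 1 and 3 lay below vehicle, and Aβ42 replicate 2 lay within it. Its log2 fold change was -0.20 ± 0.08 (edgeR adjusted p-value 0.163, 0.0478 with the block) and -0.31 without Aβ42 replicate 2 (0.00105). IFNAR2, the signalling chain, was at 22.1, 22.6 and 23.2 CPM in vehicle and 26.5, 26.1 and 27.7 CPM with Aβ42. Here all 3 Aβ42 libraries lay above vehicle (log2 fold change 0.24 ± 0.07, edgeR adjusted p-value 0.0920, 0.0411 with the block and 0.0272 without Aβ42 replicate 2).

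JAK1, the kinase bound to IFNAR2, was at 178.5, 177.8 and 186.1 CPM in vehicle and 205.3, 180.5 and 216.8 CPM with Aβ42. Aβ42 replicate 2 lay within the vehicle range (log2 fold change 0.15 ± 0.06, edgeR adjusted p-value 0.186, 0.0745 with the block and 0.00567 without Aβ42 replicate 2). TYK2, the kinase bound to IFNAR1, was at 27.5, 24.9 and 23.8 CPM in vehicle and 26.3, 25.7 and 27.6 CPM with Aβ42, with overlapping groups (edgeR adjusted p-value 0.650). JAK2, a kinase of the interferon-γ receptor, had a log2 fold change of -0.13 ± 0.07 (edgeR adjusted p-value 0.289).

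Among the transcription factors, STAT2 was at 81.9, 76.7 and 79.0 CPM in vehicle and 84.9, 77.9 and 88.6 CPM with Aβ42. Its groups overlapped, with a log2 fold change of 0.08 ± 0.06 (edgeR adjusted p-value 0.421). IRF3, which switches on interferon genes after viral sensing, was at 14.4, 13.1 and 14 CPM in vehicle and 18.3, 13.9 and 19.7 CPM with Aβ42. Aβ42 replicates 1 and 3 lay above vehicle and Aβ42 replicate 2 within it (log2 fold change 0.32 ± 0.13, edgeR adjusted p-value 0.158, 0.0466 with the block and 0.00457 without Aβ42 replicate 2). The IRF3 counts were not whole in every library. IRF9, IRF1 and IRF7 had log2 fold changes of -0.03 ± 0.14, 0.00 ± 0.25 and 0.05 ± 0.24. IRF1 and IRF7 were below 0 on both TPM scales, and IRF1 also after the length correction.

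IFI6, a mitochondrial and endoplasmic reticulum protein that interferon induces, was at 7.33, 6.44 and 7.75 CPM in vehicle and 10.2, 9.38 and 10 CPM with Aβ42. BST2, known as tetherin, holds budding virions to the cell surface, and was at 5.35, 5.47 and 4.88 CPM in vehicle and 7.01, 7.54 and 7.20 CPM with Aβ42. Both were 1.38-fold higher without overlap, and unlike most genes here Aβ42 replicate 2 was the highest BST2 library. Their log2 fold changes were 0.46 ± 0.12 and 0.47 ± 0.13 (edgeR adjusted p-values 0.0779 and 0.0868, 0.0171 and 0.0315 with the block, and 0.0147 and 0.0421 without Aβ42 replicate 2). ISG15, the ubiquitin-like modifier that interferon induces, had 5 to 17 counts per library. It was at 0.421, 0.730 and 0.305 CPM in vehicle and 1.04, 0.831 and 0.720 CPM with Aβ42, overlapping at vehicle replicate 2 (log2 fold change 0.82 ± 0.39, edgeR adjusted p-value 0.231, 0.175 with the block). USP18, which removes ISG15, had a log2 fold change of 0.30 ± 0.21.

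Log2 fold changes were below 0 for PARP14, PARP9 and DTX3L, which lie near each other on chromosome 3. PARP14 (chr3:122680839-122730840), a mono-ADP-ribosyltransferase, was at 12.3, 15.9 and 14.3 CPM in vehicle and 7.74, 11 and 8.94 CPM with Aβ42. Every Aβ42 library lay below every vehicle library, with a log2 fold change of -0.61 ± 0.14 (edgeR adjusted p-value 0.0734, 0.00138 with the block and 0.00195 without Aβ42 replicate 2). DTX3L (chr3:122564338-122575203), the ubiquitin ligase that partners PARP9, was at 4.39, 5.96 and 4.15 CPM in vehicle and 2.5, 4.28 and 2.40 CPM with Aβ42. Here the groups overlapped, since Aβ42 replicate 2 lay above vehicle replicate 3 (log2 fold change -0.66 ± 0.25, edgeR adjusted p-value 0.149, 0.0168 with the block and 0.00747 without Aβ42 replicate 2). PARP9 (chr3:122527924-122564784) was at 4.75, 7.30 and 6.22 CPM in vehicle and 4.69, 5.88 and 4.44 CPM with Aβ42, with overlap (log2 fold change -0.28 ± 0.19, edgeR adjusted p-value 0.378). In all 3 genes the library numbered 2 was the highest of its group.

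IFITM3, which blocks fusion of viruses in endosomes, was at 6.01, 7.54 and 4.63 CPM in vehicle and 3.53, 5.11 and 3.96 CPM with Aβ42. The groups overlapped, with the libraries numbered 2 the highest of both (log2 fold change -0.53 ± 0.21, edgeR adjusted p-value 0.161, 0.0363 with the block and 0.0325 without Aβ42 replicate 2). IFITM2 had the same order within groups, at 1.98, 4.07 and 1.89 CPM in vehicle and 1.58, 3.15 and 1.14 CPM with Aβ42. Its log2 fold change was -0.43 ± 0.42, but 0.02 without vehicle replicate 2 and -0.96 without Aβ42 replicate 2. The IFITM genes are near-identical copies and the counts of IFITM2 and IFITM3 were not whole in every library, so their levels are uncertain.

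Summed levels of markers of some other cell types moved with the replicate number in the same way. The summed level of 7 choroid plexus markers was 3349, 7575 and 3968 TPM in vehicle replicates 1 to 3 and 3644, 6666 and 2840 TPM in Aβ42 replicates 1 to 3. For 9 endothelial markers it was 4.02, 8.19 and 4.2 TPM in vehicle and 3.26, 5.01 and 2.90 TPM with Aβ42. For 9 mesenchymal and pericyte markers it was 29.6, 42.7 and 30.2 TPM in vehicle and 26.1, 30.1 and 27.2 TPM with Aβ42. The libraries numbered 2 were thus the highest of both groups in each of these sums, as they were for IFITM2, IFITM3, PARP9, DTX3L and PARP14. TTR made up most of the choroid plexus sum, at 3299, 7487 and 3925 TPM in vehicle. CLDN5 made up most of the endothelial sum, at 3, 6.92 and 3.38 TPM in vehicle. In the mesenchymal sum the rise in the libraries numbered 2 came mainly from DCN. It was at 9.96, 22.3 and 8.67 TPM in vehicle and 4.39, 8.82 and 4.3 TPM with Aβ42. Not every marker followed, since AQP1, TEK and RGS5 were highest in replicate 1 within vehicle. TAGLN and ACTA2 were highest in replicate 3 within vehicle, and TAGLN was lowest in replicate 2 within the Aβ42 group. All 7 choroid plexus markers had enough counts to test and 0 had an unadjusted p-value under 0.05. In the blocked fit CLIC6 and OTX2 passed as lower (2 of 7, 28.6%), at edgeR adjusted p-values of 0.000309 and 0.00612. Of 7 tested mesenchymal markers, DCN then passed as lower (log2 fold change -1.15, edgeR adjusted p-value 2.28e-06) and TAGLN as higher (0.39, 0.0361). Over all genes, 7.05% passed as lower and 7.12% as higher in the blocked fit. Only 3 of 9 endothelial markers could be tested, and PECAM1, CDH5 and VWF had at most 1 count on average. The part of these cells in the interferon gene values was not tested.

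Summed levels of intermediate progenitor, dividing cell, neuron and astrocyte markers were lower in every Aβ42 library than in every vehicle library, but not all of their genes were. At an unadjusted p-value under 0.05, 5 of 6 intermediate progenitor markers and 6 of 8 proliferation markers were lower and 0 higher. Over all genes, 11.5% were lower and 12.4% higher at that threshold. Of 7 neuron markers 3 were lower and 1, SNAP25, was higher (log2 fold change 0.15), with a median of 0.00. Of 7 astrocyte markers 2 were lower and 1, ALDH1L1, was higher (0.33), and SLC1A2 was at 0.01. Intermediate progenitor markers summed to 259.2 to 283.8 TPM in vehicle and 173.9 to 213.5 TPM with Aβ42. Proliferation markers summed to 394.5 to 473.9 TPM in vehicle and 249.1 to 357.5 TPM with Aβ42. Neuron markers summed to 4767 to 5015 TPM in vehicle and 4461 to 4719 TPM with Aβ42, while radial glia markers overlapped, at 7748 to 8078 and 8001 to 8350 TPM. Astrocyte markers summed to 207.9 to 239.8 TPM in vehicle and 172.2 to 206.9 TPM with Aβ42. The part of these differences in the class I values was not tested.

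Other antiviral genes lay on either side of 0. IFIT5, an RNA-binding protein of the IFIT family, was at 44.9, 45.6 and 46.0 CPM in vehicle and 41.8, 40.2 and 37.3 CPM with Aβ42, without overlap. Its log2 fold change was -0.19 ± 0.06 (edgeR adjusted p-value 0.114, 0.0622 with the block and 0.0470 without Aβ42 replicate 2). Its relatives IFIT1, IFIT2 and IFIT3, the more strongly inducible members, had log2 fold changes of 0.07 ± 0.16, 0.09 ± 0.16 and -0.24 ± 0.24 with overlapping groups. EIF2AK2, the kinase PKR that stops translation on sensing dsRNA, was at 133.1, 148.5 and 137.9 CPM in vehicle and 120.7, 137.8 and 113.8 CPM with Aβ42. Aβ42 replicate 2 lay within the vehicle range (log2 fold change -0.17 ± 0.07, edgeR adjusted p-value 0.181, 0.0376 with the block and 0.00684 without Aβ42 replicate 2). IFIH1, the RNA sensor MDA5, had a log2 fold change of 0.02 ± 0.29.

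TRIM22 and TRIM25, both ubiquitin ligases of antiviral defence, had log2 fold changes of 0.01 ± 0.08 and 0.01 ± 0.09, which turned to -0.04 and -0.03 on the log2(TPM + 1) scale. SAMD9 and SAMD9L, related restriction factors of poxviruses, had -0.42 ± 0.26 and -0.26 ± 0.17. The SAMD9 groups did not overlap, but only by 1.44 CPM in vehicle replicate 1 against 1.43 CPM in Aβ42 replicate 2. Both libraries held 24 counts. MX1 and ISG20, at 0.698 and 0.933 TPM, had 0.39 ± 0.35 and 0.28 ± 0.37. LGALS3BP, a secreted glycoprotein, was at 47.3, 45.4 and 44.4 CPM in vehicle and 37.7, 49.5 and 46.4 CPM with Aβ42, with overlap (log2 fold change -0.04 ± 0.09, edgeR adjusted p-value 0.831). IFI44 and IFI44L, neighbours on chromosome 1 that interferon induces, had 0.04 ± 0.09 and -0.08 ± 0.08. The edgeR adjusted p-values of these 9 genes were 0.349 to 0.949.

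**Figure D4:**
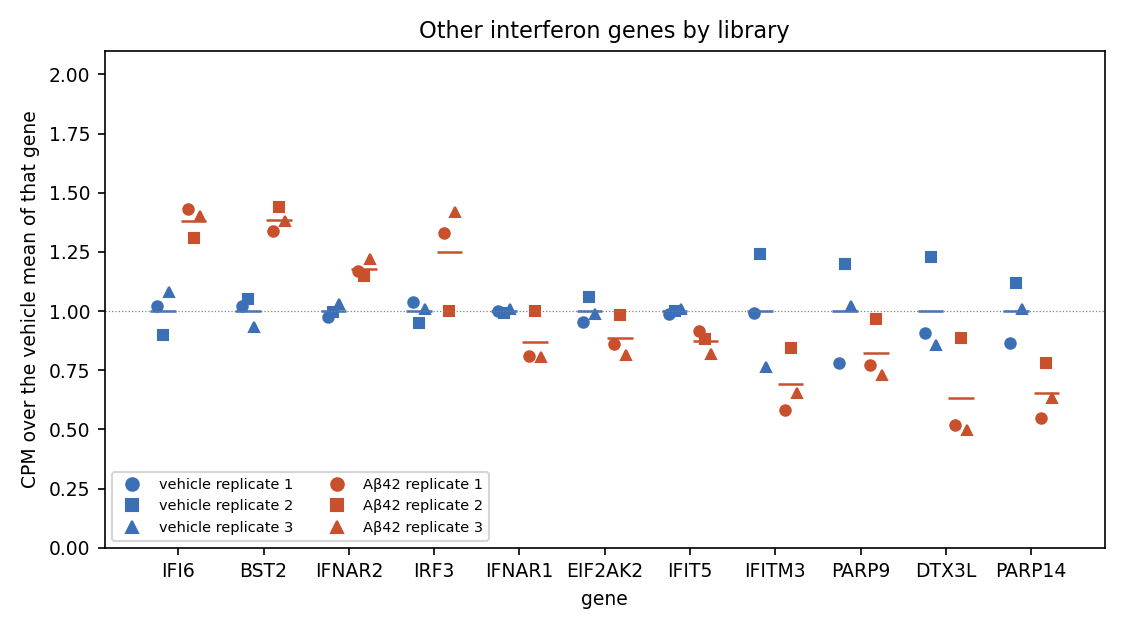
CPM of 11 further genes in each library, divided by the vehicle mean of that gene; symbols give the replicate number and bars the group mean. IFI6, BST2 and IFNAR2 lie above vehicle and IFIT5 and PARP14 below it without overlap, and in IFITM3, PARP9, DTX3L and PARP14 the libraries numbered 2 are the highest of both groups.

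Over lists of ligands, other receptors, nucleic acid sensors, other interferon-stimulated genes and other antigen presentation genes, 73 of 125 listed genes could be tested. At an unadjusted p-value under 0.05, 8 were higher (11%, against 12.4% of all genes) and 3 lower (4.11%, against 11.5%). Of 13 tested sensors and adaptors, 0 were higher and 1 was lower. It was ADAR, which edits dsRNA, at 362.8, 386.0 and 375.5 CPM in vehicle and 319.2, 364.2 and 326.3 CPM with Aβ42. ADAR overlapped through Aβ42 replicate 2 (log2 fold change -0.16 ± 0.06, edgeR adjusted p-value 0.143, 0.0420 with the block). IRF2, an IRF family repressor, had 0.25 ± 0.13 (0.280).

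Of 32 tested interferon-stimulated genes in the list of others, 4 were higher (12.5%, against 12.4% of all genes) and 1 was lower (3.12%, against 11.5%), with a median log2 fold change of 0.05. HERC5, the main ligase that attaches ISG15 to proteins, was at 3.18, 2.49 and 2.74 CPM in vehicle and 6.09, 3.33 and 4.32 CPM with Aβ42. Its groups did not overlap, and the log2 fold change was 0.70 ± 0.24 (edgeR adjusted p-value 0.121, 0.0190 with the block). LY6E, a membrane protein that blocks coronavirus entry, was at 12.4, 11.4 and 11.6 CPM in vehicle and 9.99, 9.44 and 9.96 CPM with Aβ42. It lay below vehicle in all 3 Aβ42 libraries (log2 fold change -0.27 ± 0.10, edgeR adjusted p-value 0.146, 0.109 with the block).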

How the data were processed

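Poly(A) RNA libraries were stranded, per the labels' protocols. Read counts and TPM values were deposited by the authors. The deposited counts were treated as estimated counts, since 86.9% to 87.5% of them in a library were whole, and were rounded. The submitters' processing notes name FastQC, STAR 2.7.11b, featureCounts 2.0.6 and GRCh38, and the annotation is not given in the sources used here. Reads of similar genes could therefore have been divided. Genes were kept by filterByExpr (13842 of 18056), scaled by TMM and compared with edgeR 4.0.16's quasi-likelihood test (robust dispersion, R 4.3.3), two-sided, without a block, with Benjamini-Hochberg adjustment over all genes tested and a threshold of 0.05. SE is the log2 fold change divided by the root of F. The scripts recovered known changes in data simulated with a common dispersion and no outlying library. That checks the code and not how the test behaves on these libraries. Alternatives used DESeq2 1.42.0, limma 3.58.1, other scalings and filters, log2(TPM + 1) and log2(TPM + 0.1), a length correction, a replicate block, and each library left out.

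Deviations from group means over 12187 genes correlated at 0.189, 0.409 and 0.132 between same-numbered libraries, all above 0.1, so the numbers were taken to pair them. The pairing comes from the data alone, and numbers 1 and 3 also correlated with each other (0.176 and 0.188). Chi-square per gene was 3.16 or more for every pair of libraries, so none were duplicates. The 49 genes, the lists and the genes whose promoters are printed were chosen with earlier results of these data known. Values per library were given for genes with an unadjusted p-value under 0.05 (up to the 14 smallest), the most abundant gene of each role and 10 fixed genes. They were also given for up to 10 genes past the blocked fit. Of each further list up to 2 genes were named, and JAK2, IRF2 and CIITA have no values per library. Promoters came from RefSeq, and 12 of 13 starts were found in GENCODE 29 transcripts in the sense direction and 0 in antisense. Floors cover counting error only, while the SE also takes in the spread between libraries. Some genes of the further lists are not reported here.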

Additional observations from a re-analysis of the deposited data

How the results depend on the processing

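Among the 40 genes, 29 kept the direction of their log2 fold change in all 17 alternatives and 11 turned in at least 1 (36 of 680 values). The MHC class I median was 0.35 to 0.46 in all 17. Genes past an adjusted p-value of 0.05 numbered 189 higher and 171 lower without a filter on low counts (2 and 1 of the 40), 389 and 425 with DESeq2 (4 and 1), 986 and 976 with the replicate block (9 and 5), and 1032 and 962 with the block and length offset (9 and 3). Leaving out each library in turn gave 0 to 1607 higher and 0 to 1617 lower (0 to 11 and 0 to 6 of the 49), where only the fit without Aβ42 replicate 2 gave any. Of the 49, where IFITM1 entered 4 of these 6 fits, 8 to 12 were then higher and 2 to 11 lower at an unadjusted p-value under 0.05, 8 to 13 higher and 3 to 12 lower without overlap, and the median was 0.01 to 0.12. In these 6 fits, 1871 to 5170 of all genes tested had such a p-value in either direction. Groups separate more easily by chance when a library is left out, and the share of all genes without overlap was not counted in these fits. The counts without overlap therefore cannot be read as a larger difference than with all libraries. At an unadjusted p-value under 0.05, other pathway genes gave 3 to 9 higher and 1 to 15 lower, with 4 higher under DESeq2. In the alternatives with all libraries, 2502 to 4145 of all genes tested had such a p-value in either direction. The lower count of the other pathway genes was 6 without a filter, 7 on log2(TPM + 1), 6 on log2(TPM + 0.1), 8 with the block and 6 with the block and length offset. The cause was not tested.

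Log2 fold changes turned as follows. On log2(TPM + 1) and log2(TPM + 0.1), IRF1 was -0.07 and -0.10, IRF7 -0.09 and -0.12, ISG20 -0.04 and -0.05, TRIM22 -0.04 and -0.04, and TRIM25 -0.03 and -0.03. On these scales the median of all genes was -0.040 and -0.043. With the length offset, IRF1 was -0.02 and TRIM22 -0.01, and with the replicate block added both were -0.01. With 1 library left out, the ranges of turned genes were IRF9 -0.12 to 0.03, IRF1 -0.09 to 0.19, IRF7 -0.06 to 0.20, IFIH1 -0.24 to 0.18, IFIT1 -0.01 to 0.23, IFITM2 -0.96 to 0.02, ISG20 -0.02 to 0.61, TRIM22 -0.07 to 0.08, TRIM25 -0.05 to 0.10, IFI44 -0.03 to 0.09 and LGALS3BP -0.12 to 0.07. Depth limited the 9 untested genes and those with about 10 to 40 counts, such as ISG15, HLA-F and MX1.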
